A study of Rattus norvegicus with 4 samples.

Results

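Heart muscle cultures prepared from newborn hearts carry other cells along with the myocytes, and 43 marker genes of 5 such cell classes were followed here. The list held 14 endothelial, 7 mural, 9 epicardial, 8 leukocyte and 5 fibroblast genes. A gene was taken where its symbol in the count files was exactly that of a listed marker. This gave 42 of the 22250 genes in the files, each with 1 row. Pecam1, an adhesion molecule of endothelial cells, matched no symbol and was not analysed here.

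Both groups were ventricular cardiomyocytes of Wistar rats aged 1 to 2 days, isolated with trypsin and a Percoll gradient. One group was labelled CPEB4 siRNA (siCpeb4 here) and the other Control siRNA; silencing of Cpeb4, which encodes an RNA-binding regulator of translation, lasted 72 h. Each group had 2 libraries of ribosome footprints, the mRNA fragments that ribosomes protect from RNase I, recovered from sucrose gradient fractions. The growth protocol also names 250 nM Torin1, an mTOR inhibitor, for 24 h without saying for which samples. Nothing in the labels ties the 2 replicates of a group to separate cultures. The p-values then reflect no more than the variation among these 4 libraries, which may be technical.

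In the heart, endothelial cells line the vessels, and mural cells (pericytes and smooth muscle cells) wrap around them. Vessel growth and stability depend on ligands such as VEGF, angiopoietin and PDGF that act on receptors of these cells. The epicardium is a mesothelial sheet on the outer surface and, during development, a source of fibroblasts and mural cells. Resident macrophages make up most leukocytes of the healthy heart, and their development depends on the transcription factor PU.1. Fibroblasts make much of the collagen matrix. Few markers are exclusive: Tagln, for example, is also expressed in developing heart muscle, and fibroblasts share receptors with mural cells. A bulk library cannot tell fewer cells of a type from less RNA, or fewer footprints, per cell.

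The libraries held 4889212 and 5910911 footprints in genes after siCpeb4 and 5863879 and 3554011 in controls. Cpeb4 (ENSRNOG00000033169) had 40 and 59 counts in the siCpeb4 libraries, against 351 and 253 counts in the controls. Read lengths of 29 to 33 nt were used for siCpeb4 replicate 2 and 29 to 34 nt for the other libraries. The 15 cardiomyocyte genes of a check list, led by Myh6 and Atp2a2, took 8.50% to 9.66% of the footprints in a library. All 42 markers had counts in every library, and together they took 0.335% to 0.383%. Of genes that Schwann cells express, Mbp had 38 and 28 counts after siCpeb4 and 40 and 16 counts in controls, and Erbb3 had 13 and 29 counts after siCpeb4 and 27 and 14 counts in controls. Sox10 was listed at 0 in all libraries, which need not be a measure of the gene. The 4 erythroid genes that matched summed to 5.93 and 6.77 CPM after siCpeb4 and 5.80 and 3.94 CPM in controls, where CPM is a gene's share of the library's gene counts times 1e+06.

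None of the 42 markers passed the test for a difference between siCpeb4 and control libraries (edgeR quasi-likelihood test, adjusted p under 0.05 over 11335 genes). All 42 had passed the low-count filter. Over all genes tested, 3.41% passed, with 1.54% higher and 1.87% lower. At an unadjusted p under 0.05 in edgeR, 6 markers were lower (Msln, Lyz2, Cd68, Laptm5, Pdgfra and Prrx1) and none was higher, against 8.76% lower and 7.33% higher of all genes (16.1% in all). DESeq2 called none of the 42 either, and limma-voom called Msln only. For some markers of low count, among them Plvap, Egfl7, Emcn, Tek, Tie1 and Vwf, DESeq2 gave no adjusted p and so could not call them. The median log2 fold change of the 42 markers was -0.11 and that of all tested genes was -0.00310.

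The direction was more often negative than positive. A negative log2 fold change was seen for 28 of the 42 markers, where 50.5% of all genes tested were negative. By CPM, 13 markers were lower in both siCpeb4 libraries than in both controls and 2 were higher in both, against 19.5% and 26.5% of all genes (46% in either direction). With 2 libraries against 2, an exact two-sided permutation test of any single value cannot go below p = 0.333, so the fit across all genes carries the tests. Its 95% intervals excluded a 1.5-fold difference in either direction for 26 of the 42 markers. For the other 16 they did not.

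**Figure D1:**
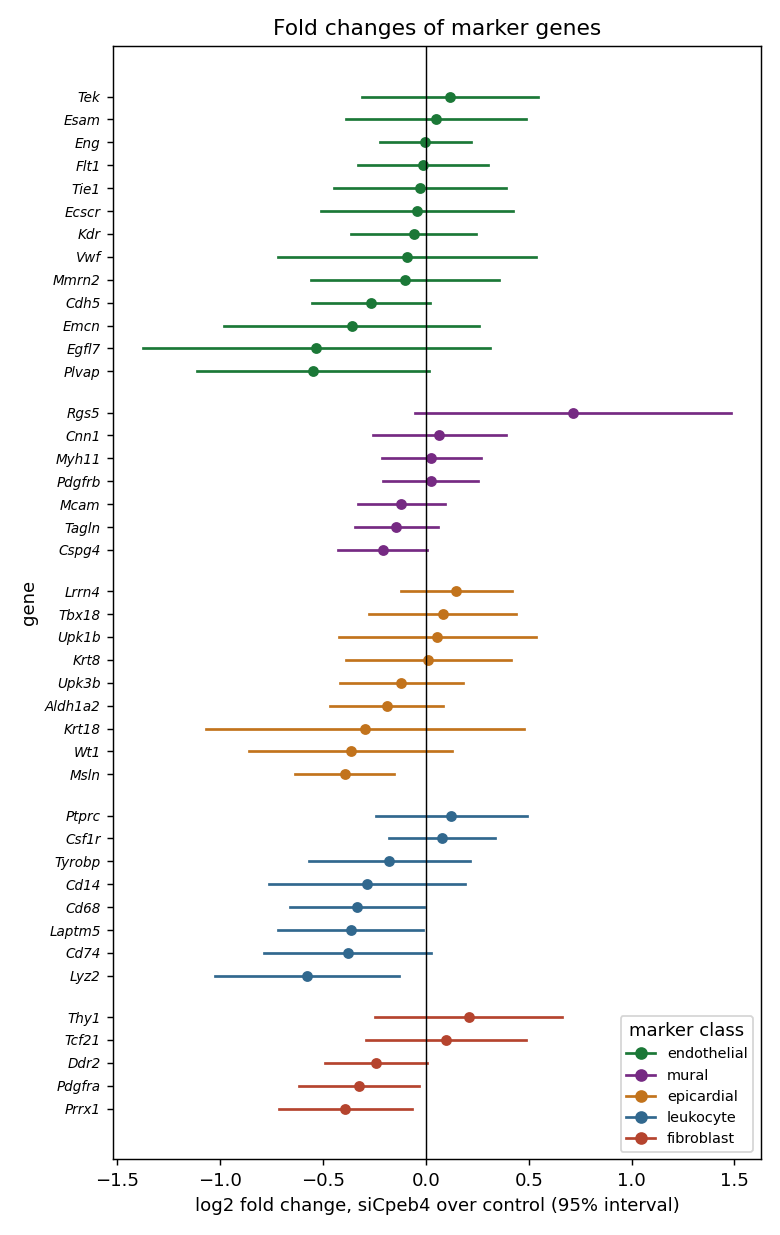
Log2 fold change of each marker, siCpeb4 over control (x axis), by gene (y axis) and cell class (colour). Points are edgeR estimates and bars their 95% intervals; for 6 of the 42 genes the bar does not reach 0, and all 6 lie below it.

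Summed by class, the leukocyte genes varied most between replicates. The 8 leukocyte genes summed to 392 and 539 CPM in siCpeb4 libraries, against 643 and 439.5 CPM in controls. The groups thus overlapped, and both replicate gaps exceeded the difference between the group means of 465.5 ± 104 CPM after siCpeb4 and 541 ± 144 CPM in controls (SD, n = 2 each). Endothelial genes also overlapped, at 384 and 425.5 CPM in siCpeb4 libraries, against 433 and 396.5 CPM in controls.

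In the other classes the groups did not overlap, and both siCpeb4 libraries were lower. Fibroblast genes summed to 165 and 175 CPM after siCpeb4, against 193 and 193 CPM in controls. Exact (Clopper-Pearson) 95% intervals for these sums were 154 to 177 and 165 to 186 CPM after siCpeb4, and 181 to 204 and 179 to 208 CPM in controls. Such intervals cover counting error only, and those of siCpeb4 replicate 2 overlap those of both controls. Epicardial genes summed to 415 and 385 CPM in siCpeb4 libraries, against 445 and 457 CPM in controls. Mural genes summed to 1998 and 1980.1 CPM after siCpeb4, against 2117 and 2122 CPM in controls. On the log2 scale the ratios of the group means were -0.18 for fibroblast, -0.17 for epicardial and -0.09 for mural genes. No test was made of these sums. Single genes did not all share the direction of their class sum: 4 of the 7 mural genes had positive log2 fold changes, with a median of 0.02, as had 4 of 9 epicardial genes (median -0.12) and 2 of 5 fibroblast genes (median -0.24). In the overlapping classes 2 of 8 leukocyte genes (median -0.31) and 2 of 13 endothelial genes (median -0.06) were positive.

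**Figure D2:**
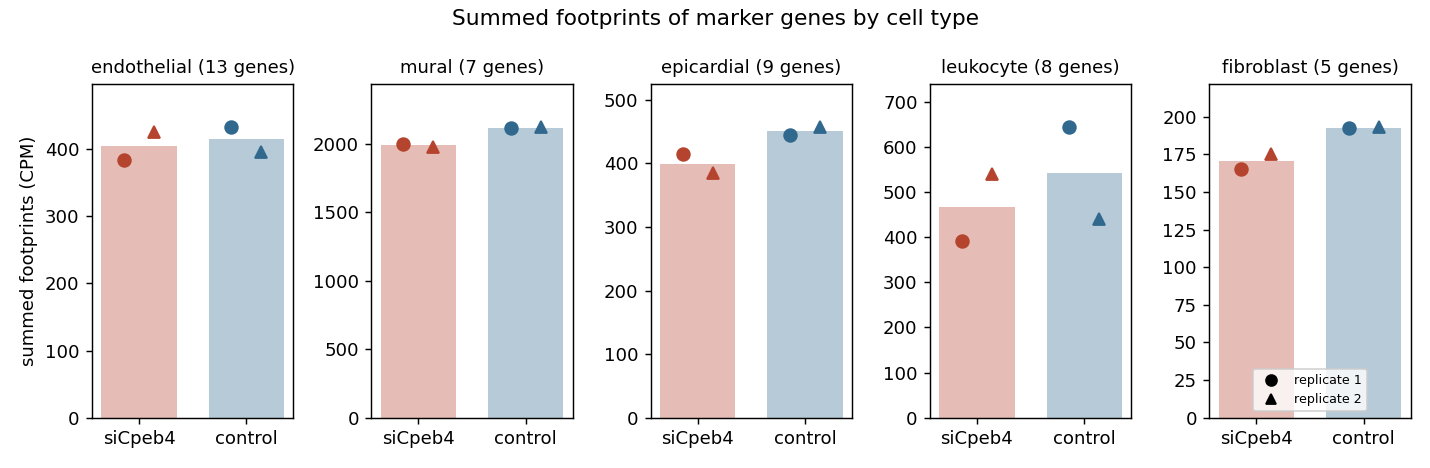
Summed footprints of the markers of each class in CPM (y axis) for siCpeb4 and control libraries. Bars are group means and symbols the 2 libraries of a group; the leukocyte sum differs most between replicates, from 392 to 643 CPM over the 4 libraries.

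Single genes weighed heavily in some sums. Tagln made up 55.5% of the mural footprints, Msln 45.0% of the epicardial and Eng 43.5% of the endothelial footprints, as means over libraries. Without Msln, the other epicardial genes summed to 228 and 234 CPM after siCpeb4, against 229 and 239 CPM in controls, and the groups overlapped. Without its most abundant gene, Ddr2, the fibroblast sum was 97.6 and 109 CPM in siCpeb4 libraries and 116 and 114 CPM in controls. Without Tagln, the mural sum was 873 and 916 CPM after siCpeb4 and 923 and 946 CPM in controls. The fibroblast and mural groups thus did not overlap without their most abundant gene, but their nearest libraries were close. Both gaps were smaller than the siCpeb4 SD of 8.05 CPM (fibroblast) and 30.8 CPM (mural; n = 2 each). Little therefore sets these classes apart from the epicardial groups, which overlapped without Msln. Of all single genes tested, 46% had groups that did not overlap.

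Endothelial receptors differed little between siCpeb4 and control libraries. Kdr, the main signalling receptor for VEGF-A, had 34.2 and 34.3 CPM after siCpeb4, against 35.5 and 34.3 CPM in controls. Flt1, a second VEGF receptor that acts largely as a decoy, had 31.7 and 39.1 CPM after siCpeb4 and 37.0 and 32.9 CPM in controls. The levels of both receptors overlapped between the groups. Their log2 fold changes were -0.06 ± 0.15 and -0.02 ± 0.15 (SE; edgeR adjusted p = 0.894 and 0.973). Tek, the receptor for angiopoietins, had 17.2 and 19.5 CPM in siCpeb4 libraries, against 18.8 and 13.8 CPM in controls. Its partner receptor Tie1 had 16.6 and 21.0 CPM after siCpeb4 and 20.8 and 16.3 CPM in controls. Both overlapped, with control replicate 2 the lowest library.

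Eng (ENSRNOG00000050190), which encodes endoglin, a co-receptor of the TGF-beta and BMP family, had 168 and 191 CPM after siCpeb4, against 178 and 175 CPM in controls. The 95% interval of its log2 fold change ran from -0.23 to 0.22. Endoglin is not specific to vessels, since fibroblasts and macrophages can express it as well. Cdh5, the cadherin of endothelial junctions, had 52.4 and 51.9 CPM after siCpeb4, against 69.2 and 52.3 CPM in controls. The gap is set by control replicate 1 (log2 fold change -0.27 ± 0.14 SE, edgeR adjusted p = 0.354), and without that library it was -0.04.

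Plvap, which forms the diaphragms of endothelial pores, was the lowest-p member of the class. It had 8.18 and 6.26 CPM after siCpeb4, against 10.4 and 10.1 CPM in controls, a log2 fold change of -0.55 ± 0.27 (SE; edgeR adjusted p = 0.330). Its groups did not overlap, but it rests on 36 to 61 counts in a library. Egfl7, a secreted factor of endothelial cells, had 3.89 and 2.20 CPM in siCpeb4 libraries and 4.26 and 4.22 CPM in controls, from only 13 to 25 counts. Vwf, the clotting factor carrier stored in endothelial granules, had 6.14 and 6.26 CPM after siCpeb4, against 6.48 and 6.47 CPM in controls.

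The other endothelial markers overlapped between groups. Emcn, a surface mucin, had 5.52 and 9.64 CPM after siCpeb4 and 11.3 and 7.60 CPM in controls. The junction molecule Esam, the surface protein Ecscr and the matrix protein Mmrn2 had log2 fold changes of 0.05, -0.04 and -0.10. Of 12 further endothelial genes from a second list, 10 were tested, none passed in edgeR, and their median log2 fold change was 0.04. In that list Robo4 was listed at 0 and Cldn5 had 1 to 4 counts in a library.

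Mural markers comprise contractile proteins, surface proteins and the signalling regulator Rgs5, and none passed the test. Tagln (ENSRNOG00000017628), the actin-binding protein transgelin, had 1125 and 1064 CPM after siCpeb4, against 1194 and 1176 CPM in controls. Both siCpeb4 libraries were lower, with a log2 fold change of -0.14 ± 0.10 (SE; edgeR adjusted p = 0.513). Myh11, the smooth muscle myosin heavy chain, had 83.4 and 87.0 CPM after siCpeb4 and 80.7 and 83.6 CPM in controls. Cnn1, calponin, had 35.4 and 36.2 CPM in siCpeb4 libraries, against 30.0 and 38.0 CPM in controls. The contractile genes thus stood at log2 fold changes of -0.14, 0.03 and 0.06.

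Pdgfrb, the PDGF-B receptor of pericytes, had 199.6 and 221 CPM after siCpeb4, against 221 and 184 CPM in controls, and its groups overlapped. Cspg4, the proteoglycan NG2 of pericytes, had 289 and 288 CPM in siCpeb4 libraries, against 309 and 347 CPM in controls, with no overlap (log2 fold change -0.21 ± 0.10 SE, edgeR adjusted p = 0.323). Mcam, the adhesion molecule CD146, had 258 and 277 CPM after siCpeb4 and 277 and 292 CPM in controls. All 3 surface proteins had 95% intervals inside a 1.5-fold difference.

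Rgs5, a regulator of G-protein signalling in pericytes, had the highest log2 fold change of all markers, 0.71 ± 0.37 (SE; edgeR adjusted p = 0.355). It had 33 and 42 counts (6.75 and 7.11 CPM) in siCpeb4 libraries, against 33 and 7 counts (5.63 and 1.97 CPM) in controls. The difference rests on the 7 counts of control replicate 2. Without that library the log2 fold change was 0.28, and without control replicate 1 it was 1.76.

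Among epicardial genes, Msln (ENSRNOG00000019445), which encodes the mesothelial surface protein mesothelin, came closest to the threshold of all 42 markers. It had 186 and 150.2 CPM after siCpeb4, against 216 and 218 CPM in controls. Both siCpeb4 libraries were below both controls, with a group mean of 168 ± 25.4 CPM after siCpeb4 and 217 ± 1.37 CPM in controls (SD, n = 2 each). The log2 fold change was -0.39 ± 0.12 (SE; edgeR adjusted p = 0.0657), with a 95% interval from -0.64 to -0.15. Msln passed with robust edgeR (adjusted p = 0.0354), with limma-voom (adjusted p = 0.0499), with no low-count filter (edgeR adjusted p = 0.0194), and in edgeR with siCpeb4 replicate 1 left out (adjusted p = 0.0105). It did not pass in DESeq2 (adjusted p = 0.134), without siCpeb4 replicate 2 (edgeR adjusted p = 0.358) or without either control (edgeR adjusted p = 0.212 and 0.239).

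The 9 epicardial markers were split in direction, with 4 positive and 5 negative log2 fold changes. Wt1, the transcription factor that marks the developing epicardium, had 9.61 and 12.2 CPM after siCpeb4, against 12.6 and 15.5 CPM in controls (log2 fold change -0.37 ± 0.24 SE). Aldh1a2, which makes retinoic acid in the epicardium, had 50.5 and 45.7 CPM after siCpeb4, against 54.2 and 53.2 CPM in controls. Neither overlapped and neither passed (edgeR adjusted p = 0.487 and 0.519). Lrrn4, a surface protein of mesothelial cells, was on the other side, with 55.2 and 63.1 CPM after siCpeb4 and 55.1 and 49.2 CPM in controls. Tbx18, a T-box factor of the epicardium and of pericytes, had 24.7 and 33.2 CPM in siCpeb4 libraries, a range that spans the 26.4 and 27.6 CPM of controls.

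The uroplakins Upk3b and Upk1b, membrane proteins shared by mesothelium and urothelium, had log2 fold changes of -0.12 and 0.06. Krt8 and Krt18, keratins that pair into the filaments of simple epithelia, had log2 fold changes of 0.01 ± 0.19 and -0.30 ± 0.37 (SE). Krt18 had only 18 to 25 counts in a library. Keratin genes have close relatives, so reads kept only where they map uniquely leave their counts uncertain.

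Of the 5 fibroblast markers, 3 were lower in both siCpeb4 libraries than in both controls, where 19.5% of all genes tested were, and none passed the test. Pdgfra (ENSRNOG00000002244), the PDGF receptor of fibroblasts and their progenitors, had 34.0 and 36.2 CPM after siCpeb4, against 43.1 and 43.0 CPM in controls. The replicates of each group lay close together and the groups were apart, with a log2 fold change of -0.32 ± 0.14 (SE; edgeR adjusted p = 0.245). Prrx1 (ENSRNOG00000003720), a homeobox factor of mesenchymal cells, had 27.6 and 29.3 CPM in siCpeb4 libraries, against 40.1 and 32.4 CPM in controls (log2 fold change -0.39 ± 0.16 SE, edgeR adjusted p = 0.202). Ddr2, a receptor activated by fibrillar collagen, had 67.9 and 66.1 CPM after siCpeb4, against 76.7 and 78.8 CPM in controls. For these 3 genes the groups did not overlap.

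The other two, Tcf21 and Thy1, overlapped between the groups. Tcf21, the transcription factor needed for cardiac fibroblast development, had 21.3 and 21.8 CPM after siCpeb4, against 18.2 and 21.7 CPM in controls. Thy1, a surface glycoprotein, had 14.7 and 21.7 CPM in siCpeb4 libraries and 14.3 and 17.2 CPM in controls. Their log2 fold changes were 0.10 ± 0.19 and 0.21 ± 0.22 (SE).

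Some matrix genes of a second fibroblast list passed the test, where no fibroblast marker did. Those that passed had 3015 to 139762 counts over all libraries, against 345 to 1453 for the fibroblast markers. Sparc and Col3a1, which did not pass, had 87675 and 62687. The SE of the log2 fold change was 0.12 for Ddr2, with 1453 counts, and 0.11 for Fbln2, with 3015. Whether depth plays a part was not tested. Of 11 matrix genes tested, 4 fell and none rose: Fn1, Mgp, Fbln2 and Col1a1, with log2 fold changes of -0.70, -0.70, -0.66 and -0.55 (edgeR adjusted p = 0.000687, 0.000158, 0.00077 and 0.00339). Of all genes tested, 1.87% were called lower and 1.54% higher. All 11 had negative values, with a median of -0.26, against -0.24 for the 5 fibroblast markers. The list was drawn up knowing that matrix genes were lower in these libraries, so its direction is no independent evidence. Mgp, an inhibitor of calcification, had 632 and 602 CPM after siCpeb4, against 979 and 985 CPM in controls. Sparc and Col3a1, also abundant matrix genes, had log2 fold changes of -0.10 and -0.25 and did not pass (edgeR adjusted p = 0.694 and 0.186). Col1a2 was listed at 0 in all libraries although Col1a1 had at least 27959 counts, so its zero is no measure of that collagen. The Col1a1 call ended without control replicate 1 or siCpeb4 replicate 2 (edgeR adjusted p = 0.055 and 0.094).

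**Figure D3:**
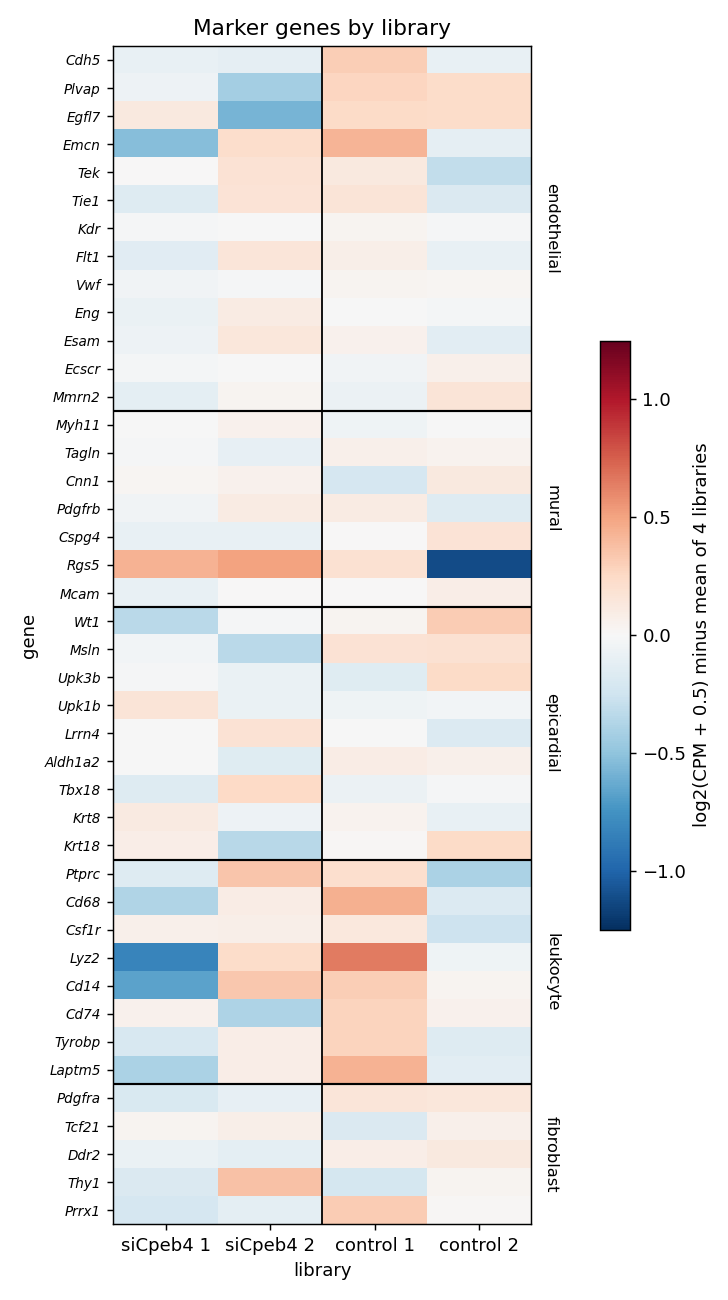
Level of the 42 markers (rows, grouped by class) in the 4 libraries (columns), as log2(CPM + 0.5) minus the gene's mean over the libraries. Red is above and blue below that mean; Lyz2, Cd14, Cd68 and Laptm5 are lowest in siCpeb4 replicate 1, and Pdgfra and Ddr2 are lower in both siCpeb4 libraries.

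Leukocyte markers differed between replicates as much as between siCpeb4 and control libraries, and none passed the test. Lyz2 (ENSRNOG00000005825), the lysozyme of macrophages, had 62.6 and 130.4 CPM after siCpeb4, against 174 and 107 CPM in controls. Cd68 (ENSRNOG00000037563), a lysosomal glycoprotein of macrophages, had 90.2 and 125 CPM in siCpeb4 libraries and 160.0 and 104 CPM in controls. In both genes siCpeb4 replicate 1 was lowest and control replicate 1 highest, and siCpeb4 replicate 2 was above control replicate 2. The order was alike for Laptm5, a lysosomal protein of blood cells, with 34.6 and 48.4 CPM after siCpeb4 and 61.9 and 41.6 CPM in controls.

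Promoter windows are shown for Lyz2 and Cd68, low in siCpeb4 replicate 1, and for C1qa, a complement gene of macrophages that was high in that library. They are RefSeq sequences of the rat assembly GRCr8, from 250 bases before to 50 bases after the annotated start, and the count files used Rnor_6.0. The lines run 5′ to 3′ on the gene's strand. Capitals mark GAGGAA, a form of the PU.1 motif, or its reverse complement TTCCTC, and no other form was searched for. The Lyz2 window is chr7:54797962-54798261 on the minus strand, that of Cd68 chr10:54882392-54882691 on the minus strand and that of C1qa chr5:154419884-154420183 on the minus strand.
Lyz2: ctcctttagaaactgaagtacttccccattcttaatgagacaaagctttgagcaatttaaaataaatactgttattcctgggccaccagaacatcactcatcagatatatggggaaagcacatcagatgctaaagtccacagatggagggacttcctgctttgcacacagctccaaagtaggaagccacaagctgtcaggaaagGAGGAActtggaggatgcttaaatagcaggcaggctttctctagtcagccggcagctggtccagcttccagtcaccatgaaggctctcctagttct
Cd68: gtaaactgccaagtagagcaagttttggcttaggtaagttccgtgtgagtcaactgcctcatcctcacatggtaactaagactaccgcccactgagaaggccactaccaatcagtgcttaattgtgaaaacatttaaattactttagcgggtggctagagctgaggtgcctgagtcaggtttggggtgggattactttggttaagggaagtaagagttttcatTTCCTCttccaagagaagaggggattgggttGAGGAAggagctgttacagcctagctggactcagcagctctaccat
C1qa: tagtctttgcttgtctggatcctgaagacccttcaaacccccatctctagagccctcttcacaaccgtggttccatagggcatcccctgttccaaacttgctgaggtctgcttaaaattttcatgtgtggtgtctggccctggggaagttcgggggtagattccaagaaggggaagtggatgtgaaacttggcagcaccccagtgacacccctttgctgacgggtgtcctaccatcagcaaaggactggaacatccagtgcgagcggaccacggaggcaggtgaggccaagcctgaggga

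The 6 letters were found in the windows of all 7 leukocyte markers with a RefSeq window (Ptprc, Cd68, Csf1r, Lyz2, Cd14, Cd74 and Laptm5), on either strand. They were in 27.6% of all 33469 windows of 300 bases. Of C1qa and C1qb, the C1q genes with a window, C1qb held the letters and C1qa did not, though both were highest in siCpeb4 replicate 1. Csf1r and Ptprc, which hold the letters, were lowest in control replicate 2. A link between the letters and the levels was not tested. A match is a description of the sequence and not a binding site, and no match says only that these letters are not in this window.

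Log2 fold changes were -0.58 ± 0.21 for Lyz2, -0.33 ± 0.16 for Cd68 and -0.37 ± 0.17 for Laptm5 (SE; edgeR adjusted p = 0.163, 0.298 and 0.287). They depended on single libraries. Without control replicate 2 all 3 passed (edgeR adjusted p = 0.000165, 0.0166 and 0.0493), and Lyz2 also did so with siCpeb4 replicate 2 left out (edgeR adjusted p = 0.00597). Without control replicate 1 the values were -0.18, 0.01 and -0.04. Without the low-count filter Lyz2 passed as well (edgeR adjusted p = 0.000203). Lyz2 did not pass in DESeq2 (adjusted p = 0.877), with robust edgeR (adjusted p = 0.757) or with limma-voom (adjusted p = 0.133). Lysozyme genes form a family of close copies, so unique mapping leaves the Lyz2 counts uncertain.

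Cd14, the lipopolysaccharide co-receptor, had 14.3 and 29.3 CPM after siCpeb4, against 28.6 and 23.6 CPM in controls, so only siCpeb4 replicate 1 was low. Tyrobp, the signalling adaptor DAP12, had 20.2 and 24.7 CPM after siCpeb4 and 28.3 and 20.8 CPM in controls. Of the 8 leukocyte genes, 5 were lowest in siCpeb4 replicate 1 and 6 were highest in control replicate 1, against 25% and 23.7% of all genes tested. Both held for 4 of the 8, against 9.38% of all genes.

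Other leukocyte markers had different orders. Csf1r, the receptor that macrophages need for survival, had 110.0 and 111 CPM after siCpeb4, against 115 and 88.1 CPM in controls. Ptprc, the pan-leukocyte phosphatase CD45, had 37.8 and 54.1 CPM in siCpeb4 libraries and 49.3 and 32.1 CPM in controls. Both overlapped, and in both control replicate 2 was lowest. Cd74, the invariant chain that escorts MHC class II molecules, was the only leukocyte marker whose groups did not overlap, with 21.9 and 16.1 CPM after siCpeb4, against 25.8 and 21.9 CPM in controls (log2 fold change -0.38 ± 0.20 SE, edgeR adjusted p = 0.352). Its siCpeb4 replicate 1 and control replicate 2 were nearly equal.

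The complement genes C1qa, C1qb and C1qc, which resident macrophages express together, ran against Lyz2, Cd68, Laptm5 and Cd14 in siCpeb4 replicate 1. They belong to a second list of macrophage genes and were singled out after their values were seen. C1qa had 87.3 and 63.1 CPM after siCpeb4, against 68.6 and 59.1 CPM in controls. C1qb had 53.2 and 37.6 CPM after siCpeb4 and 40.4 and 37.1 CPM in controls. C1qc had 56.9 and 35.9 CPM in siCpeb4 libraries, against 33.3 and 42.8 CPM in controls. All 3 were highest in siCpeb4 replicate 1, the library where Lyz2, Cd68, Laptm5 and Cd14 were lowest, and none passed (edgeR adjusted p = 0.561, 0.635 and 0.520).

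Ratios of counts within a library do not depend on its scaling. Lyz2 had 0.717 counts for each C1qa count in siCpeb4 replicate 1 and 2.07 in siCpeb4 replicate 2, against 2.54 and 1.81 in controls. The Cd14 to C1qa ratio was 0.164 and 0.464 after siCpeb4, against 0.418 and 0.400 in controls. The C1qb to C1qa ratio, by comparison, was 0.609 and 0.595 after siCpeb4 and 0.590 and 0.629 in controls. C1qc kept less closely to C1qa, with 195 counts to 402 in control replicate 1 and 152 to 210 in control replicate 2. The Csf1r to C1qa ratio was 1.26 and 1.76 after siCpeb4 and 1.68 and 1.49 in controls, also lowest in siCpeb4 replicate 1, although Csf1r itself was not low there. Since C1qa was picked for its high value in that library, the low ratios restate that choice and are a description only.

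**Figure D4:**
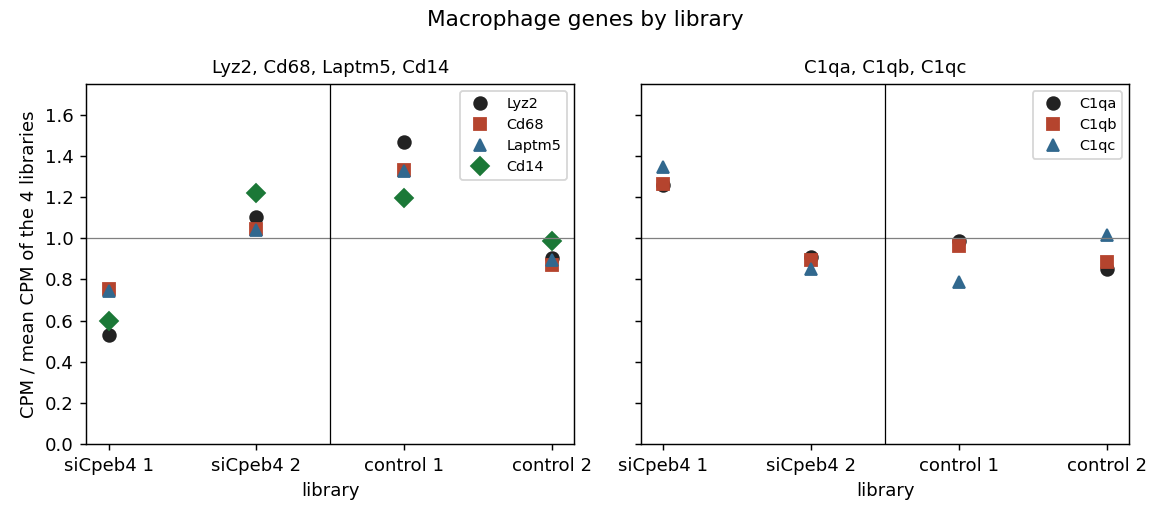
CPM of macrophage genes in each library divided by the gene's mean over the 4 libraries (y axis), with siCpeb4 libraries left of controls (x axis). Lyz2, Cd68, Laptm5 and Cd14 (left) are lowest and C1qa, C1qb and C1qc (right) highest in siCpeb4 replicate 1.

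Of the 12 genes of the second macrophage list that were tested, 8 were positive and 4 negative, with a median log2 fold change of 0.12, and none passed in edgeR. The markers proper had a median of -0.31. Cd163, a scavenger receptor of resident macrophages singled out after its values were seen, had 35 and 32 counts (7.16 and 5.41 CPM) after siCpeb4 and 22 and 10 counts (3.75 and 2.81 CPM) in controls (log2 fold change 0.85 ± 0.36 SE, edgeR adjusted p = 0.233). The mannose receptor Mrc1, with 96.9 and 157 CPM after siCpeb4 and 159.6 and 125 CPM in controls, was in library order like Lyz2. Adgre1, the macrophage receptor F4/80, had 96.3 and 111 CPM in siCpeb4 libraries, against 122 and 73.7 CPM in controls.

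Ligands of the receptors among the markers were read from a separate list of 18 genes, of which 15 were tested and none passed in edgeR. Their median log2 fold change was -0.04, with 6 positive and 9 negative. Pdgfc, a ligand of Pdgfra, had 9.61 and 11.8 CPM after siCpeb4, against 5.63 and 5.35 CPM in controls. Both siCpeb4 libraries were higher, with a log2 fold change of 0.94 ± 0.28 (SE; edgeR adjusted p = 0.0744) from 19 to 70 counts in a library. Csf1, the ligand of Csf1r, had 108 and 170.0 CPM in siCpeb4 libraries, against 115 and 90.0 CPM in controls, so only siCpeb4 replicate 2 stood out (log2 fold change 0.40 ± 0.16 SE, edgeR adjusted p = 0.186). Both were named after their values were seen. Csf1 passed in edgeR with either replicate 1 left out (adjusted p = 0.00834 for siCpeb4 and 0.0491 for control), and its log2 fold change was 0.04 without siCpeb4 replicate 2. Without the low-count filter both ligands passed (edgeR adjusted p = 0.0282 for Pdgfc and 0.0302 for Csf1). Neither passed with robust edgeR (adjusted p = 0.0531 for Pdgfc and 0.532 for Csf1) or with limma-voom (adjusted p = 0.0857 and 0.233). Csf1 did not pass in DESeq2 either (adjusted p = 0.813).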

How the data were processed

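The authors deposited raw footprint counts per Ensembl gene in HTSeq format, per the deposited file names from uniquely mapped reads of 29 to 34 nt, or 29 to 33 nt in siCpeb4 replicate 2. Per the submitters' processing notes, Bowtie2, STAR 2.7, HTSeq 0.12 and Rnor_6.0 were used; their roles and the strand setting are not given in the sources used here. Gene totals were 3554011 to 5910911 per library. The 5 summary rows stayed out (no-feature reads, 4.42% to 4.63%). No RNA-seq was used here, so values are footprint levels, not translational efficiencies.

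Levels are CPM of the library's gene total. Tests used edgeR 4.0.16 in R 4.3.3 (quasi-likelihood F-test, TMM, filterByExpr with a minimum count of 10, group as the only term, two-sided, Benjamini-Hochberg adjustment over 11335 genes) and were tested on simulated data. SE is the absolute log2 fold change over the square root of F. Chi-square per degree of freedom between replicates was 5.12 after siCpeb4 and 2.91 in controls, above sampling noise. Alternatives were other normalisations and filters, DESeq2 1.42.0, limma-voom (limma 3.58.1), robust edgeR, thinning, the replicate block and each library left out.

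Members and lists were chosen with earlier results of these data known. By rule, Cpeb4, every marker, members of the other lists that passed and up to 2 further members of a list by level could be named, of which some lists' are left out; C1qa, C1qb, C1qc, Cd163, Csf1, Pdgfc, Mbp and Erbb3, and genes of the check lists at or near 0, were added after their values were seen.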

Additional observations from a re-analysis of the deposited data

How the results depend on the processing

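Over all genes tested, 386 passed in edgeR, 192 in DESeq2, 223 after thinning to the smallest library, 606 without the low-count filter, 629 at an adjusted p under 0.10 and 212 to 318 with 1 library left out. Of the 42 markers, none passed in edgeR, 1 passed with limma-voom, with robust edgeR or at an adjusted p under 0.10 (Msln each time), 2 without the low-count filter (Msln and Lyz2) and 0 to 3 with 1 library left out, where the group's lone library is assumed to vary like the other group. With the replicate number as a block, 0 markers passed; the numbers share no stated origin, and the pairing check gave a correlation of -0.10. With the crossed pairing, chosen after seeing the data, 2 passed.

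With 1 library left out, the median log2 fold change ranged over -0.14 to -0.042 (endothelial), -0.12 to 0.046 (mural), -0.19 to -0.035 (epicardial), -0.45 to -0.015 (leukocyte) and -0.27 to -0.21 (fibroblast). The epicardial median was -0.054 with at least 30 counts in 2 libraries. The log2 ratio of summed footprints ranged over -0.11 to 0.037 (endothelial), -0.098 to -0.085 (mural), -0.23 to -0.12 (epicardial), -0.47 to 0.083 (leukocyte) and -0.22 to -0.14 (fibroblast). For leukocytes it was 0.083 without control replicate 1, -0.0054 without siCpeb4 replicate 1 and -0.47 without siCpeb4 replicate 2 or control replicate 2. The mural ratio was -0.12 with TMM sizes, -0.064 without Tagln, -0.083 after thinning and -0.10 when scaled to cardiomyocyte genes, which was chosen after seeing the data. The epicardial ratio was -0.018 without Msln. The cause was not tested.

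The sign of the log2 fold change turned with library totals for Tie1 (0.0014), Flt1 (0.014) and Eng (0.027), with upper-quartile scaling for Eng (0.011), and after thinning for Kdr (0.096), Eng (0.023), Esam (-0.015), Ecscr (0.034), Upk1b (-0.044), Tbx18 (-0.15) and Krt8 (-0.016). With 1 library left out, both signs occurred in the ranges -0.050 to 0.37 (Tek), -0.20 to 0.17 (Tie1), -0.17 to 0.11 (Flt1), -0.085 to 0.076 (Eng), -0.050 to 0.15 (Esam), -0.12 to 0.018 (Ecscr), -0.24 to 0.019 (Mmrn2), -0.011 to 0.060 (Myh11), -0.12 to 0.24 (Cnn1), -0.088 to 0.15 (Pdgfrb), -0.33 to 0.083 (Upk3b), -0.078 to 0.20 (Upk1b), -0.14 to 0.26 (Tbx18), -0.086 to 0.11 (Krt8), -0.16 to 0.49 (Ptprc), -0.59 to 0.0087 (Cd68), -0.082 to 0.29 (Csf1r), -0.90 to 0.11 (Cd14), -0.35 to 0.075 (Tyrobp), -0.047 to 0.22 (Tcf21), -0.091 to 0.44 (Thy1), -0.075 to 0.12 (Atp2a2), -0.58 to 0.094 (Mrc1), -0.25 to 0.45 (Adgre1), -0.065 to 0.43 (C1qa), -0.092 to 0.43 (C1qb) and -0.099 to 0.59 (C1qc). None of these genes had passed the test in edgeR. Counts were fewest for Egfl7, Krt18 and Rgs5 among the markers, which limits them most.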
